A study of Homo sapiens with 3 samples.

Results

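The 9 genes described here are HLA-B, HLA-C, HLA-E, B2M, TAP1, TAP2, TAPBP, NLRC5 and CD274, which serve antigen presentation by class I of the major histocompatibility complex (MHC) or, for CD274, encode the inhibitory ligand PD-L1. They were taken by symbol from a table of 58037 genes, each symbol had 1 row, and all 9 were among the 14413 genes whose normalised counts averaged 20 or more. The cells were A375, an established human melanoma line, kept for 24 h (the treatment protocol gives a range that begins there) in serum-free DMEM (control), in young adipocyte secretome (YA-A375) or in old adipocyte secretome (OA-A375). A secretome is serum-free medium conditioned by adipocytes that had been differentiated in culture from human subcutaneous preadipocytes, so the medium of every group was serum-free. Each group had 1 poly(A) RNA library of a single cell line, so no difference below has a replicate check, and the labels do not say how many adipocyte donors a secretome came from. In addition, with bulk RNA fewer expressing cells and less RNA per cell cannot be told apart.

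Class I molecules display peptides made inside the cell to CD8+ T cells. A heavy chain (HLA-B, HLA-C) pairs with beta-2 microglobulin (B2M), while the TAP1 and TAP2 transporter carries peptides into the endoplasmic reticulum and tapasin (TAPBP) bridges it to the empty heavy chain. HLA-E presents mainly leader peptides of other class I chains to receptors of natural killer (NK) cells. NLRC5 is the transactivator of class I genes, as CIITA is of class II genes. PD-L1 binds PD-1 on T cells and dampens them, and both class I genes and CD274 are classic targets of interferon gamma. Melanoma cells can lower the first or raise the second, which limits recognition by T cells.

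The OA library was the shallowest, with 18089008 counts, and the control library the deepest, with 21448195. Where 3 counts follow each other below, they stand in the order control, YA, OA. Of the markers expected under the label of a melanoma cell, SOX10 had 0 counts in every library, TYR at most 2 and PMEL at most 10, while MITF had 1221, 764 and 881, S100B 843, 591 and 550, and AXL 9837, 8832 and 10449. Among 13 leukocyte markers, PTPRC, the pan-leukocyte marker, had 0, 1 and 0 counts and CD3D, CD3E, AIF1 and TYROBP had 0 in all 3 libraries. The summed leukocyte marker level was 221, 235 and 165 normalised counts, most of it from LYZ and ITGAX. The 7 adipocyte markers summed to 124, 226 and 165 normalised counts and the 7 fibroblast markers to 221, 358 and 249, with ADIPOQ and LEP at 0 or 1 count. The higher sums came from a few genes: DCN had 13, 138 and 24 counts (10.7-fold of control in YA, 6.03 to 20.5), LIPE 79, 153 and 67, CIDEC 6, 31 and 36, and COL1A1 75, 117 and 84, while PDGFRA had 76, 20 and 51. The 4 endothelial markers summed to 227, 227 and 108. The part of these markers in the results was not tested.

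The upstream sequence of class I genes carries shared control elements, which are shown here for genes on either side of the main contrasts: B2M and CD274, which were higher in OA than in YA, HLA-B, which was not, and HLA-DRB1, a class II gene. The sequences are those of RefSeq on GRCh38.p14, printed 5′ to 3′ on the strand of the gene from 250 bases before its RefSeq start site up to the base before its first annotated transcript in RefSeq or GENCODE. Alleles of A375 may differ from them. Capitals mark matches on either strand to the interferon-stimulated response element (ISRE, searched as GAAA, any 2 bases, GAAA), TTCNNNGAA (the gamma-activated site, GAS), TGACG (the core of the cyclic AMP response element), CCAAT and the NF-kB consensus.
B2M, chr15:44711267-44711486, plus strand: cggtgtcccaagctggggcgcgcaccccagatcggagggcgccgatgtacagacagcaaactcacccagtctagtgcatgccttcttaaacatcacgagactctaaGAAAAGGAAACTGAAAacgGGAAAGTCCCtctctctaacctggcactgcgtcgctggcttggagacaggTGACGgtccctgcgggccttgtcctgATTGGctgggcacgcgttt
CD274, chr9:5450292-5450502, plus strand: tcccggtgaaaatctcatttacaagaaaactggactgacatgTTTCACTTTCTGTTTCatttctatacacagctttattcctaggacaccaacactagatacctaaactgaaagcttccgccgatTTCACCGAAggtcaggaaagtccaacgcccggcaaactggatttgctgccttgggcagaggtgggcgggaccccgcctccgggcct
HLA-B, chr6:31357189-31357429, minus strand: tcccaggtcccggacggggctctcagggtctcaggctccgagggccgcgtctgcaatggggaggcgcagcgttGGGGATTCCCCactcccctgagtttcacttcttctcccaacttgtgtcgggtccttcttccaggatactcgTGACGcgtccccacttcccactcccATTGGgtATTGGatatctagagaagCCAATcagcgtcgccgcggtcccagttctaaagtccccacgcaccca
HLA-DRB1, chr6:32589849-32590098, minus strand: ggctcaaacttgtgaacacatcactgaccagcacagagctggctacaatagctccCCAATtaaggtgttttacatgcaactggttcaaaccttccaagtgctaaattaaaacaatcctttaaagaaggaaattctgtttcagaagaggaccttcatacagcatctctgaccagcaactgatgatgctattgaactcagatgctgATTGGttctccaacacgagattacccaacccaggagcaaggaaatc

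B2M and CD274 each held 2 overlapping ISRE matches, from -144 to -129 and from -208 to -193 relative to the RefSeq start site, and CD274 also held a GAS match from -125 to -117. HLA-B held an NF-kB match from -177 to -167 in 2 overlapping frames and TGACG from -106 to -102, followed by 3 CCAAT matches. In the 250 bases before the start site, ISRE letters were found for 5 of the 7 genes with an entry (B2M, CD274, TAP1, TAP2 and TAPBP), beside 3.02% of 35116 promoters, and for 0 of 10 genes of the class II list. NF-kB letters were found for 5 of the 7 (HLA-B, HLA-C, B2M, TAP1 and TAPBP) and 1 of 10 class II genes, beside 5.21% of promoters. The CCAAT box was found for 4 of 7 and 9 of 10 (32% of promoters), TGACG for 4 of 7 and 4 of 10 (21.2%), and GAS for 2 of 7 and 1 of 10 (6.57%). HLA-E and NLRC5 had no entry. A match is a description of letters and does not show that a factor was bound. The search allowed no mismatch to the fixed letters. A gene without a match, such as HLA-B or HLA-C for the ISRE, may still carry a variant of the element.

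Levels of different genes were compared per length, as TPM (transcript counts scaled to a common sum after division by length) over the summed exons of each gene. In control, B2M stood at 391 TPM, HLA-C at 240, HLA-E at 158, TAPBP at 109, HLA-B at 108, TAP1 at 24.1, TAP2 at 13.9, NLRC5 at 3.81 and CD274 at 3.68. The light chain was thus the most abundant member and the transactivator and PD-L1 the least, with TAPBP and HLA-B, and NLRC5 and CD274, as neighbours that were not separable by counting error in control. In OA the last pair stood the other way round, with CD274 at 5.55 and NLRC5 at 4.31 TPM, but over the length of the longest transcript NLRC5 stayed above CD274 there, at 5.62 and 4.50. That length also put HLA-B (152 TPM) above HLA-E (129) and TAPBP (104) in control. Among the 14380 tested genes with a length, B2M lay at the 97.7 percentile in control and CD274 at the 15.5.

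**Figure D1:**
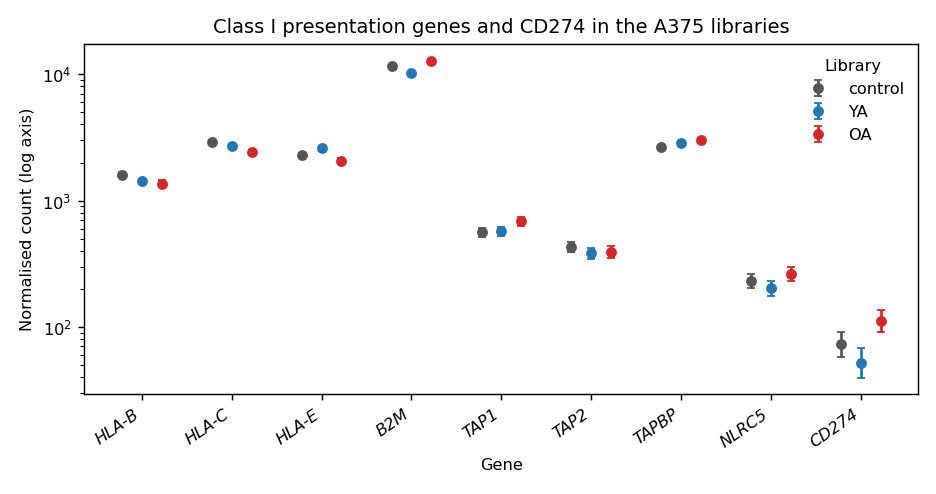
Normalised counts (log axis) of the 9 genes in the control, YA and OA libraries, 1 point per library; bars are 95% counting intervals. The points of each gene lie close together beside the range between genes, from CD274 at 52.0 in YA to B2M at 12740 in OA.

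The first comparison asked whether the YA secretome altered these transcripts. At 1.2-fold, the cutoff the study used for pathway analysis, 0 of 9 members were higher and 1 of 9 was lower (CD274), where 17.4% and 16.4% of the 14413 tested genes passed. The median log2 fold change of the members was -0.17, beside -0.02 over all tested genes, and their values ran from -0.49 to 0.18.

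The comparisons with control share that library and are given side by side. In OA against control 2 of 9 members were at least 1.2-fold higher (CD274 and TAP1) and 1 was lower (HLA-C), where 21.1% and 21.5% of tested genes passed. The median log2 fold change was 0.14, beside 0.01 over all tested genes. Between the secretomes 4 of 9 were at least 1.2-fold higher in OA than in YA (CD274, NLRC5, B2M and TAP1) and 1 was lower (HLA-E), with 21.5% and 23.0% of tested genes past the same threshold. The median was 0.08, beside 0.01. TAP1 was at the threshold, with a log2 fold change of 0.27 between OA and YA that became 0.26 under TMM scaling and 0.25 under total-count scaling, both short of 1.2-fold.

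A stricter rule asked for a counting interval wholly beyond 1.2-fold. In YA against control no member passed in either direction, where 6.03% of tested genes were above and 4.44% below. In OA against control again 0 of 9 passed, where 9.04% were above and 9.08% below. Between OA and YA 2 of 9 were above (CD274 and B2M) and 0 below, where 9.03% and 10.0% of tested genes passed. With so few members, these numbers are no result about the group, and each gene is described by its own values.

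**Figure D2:**
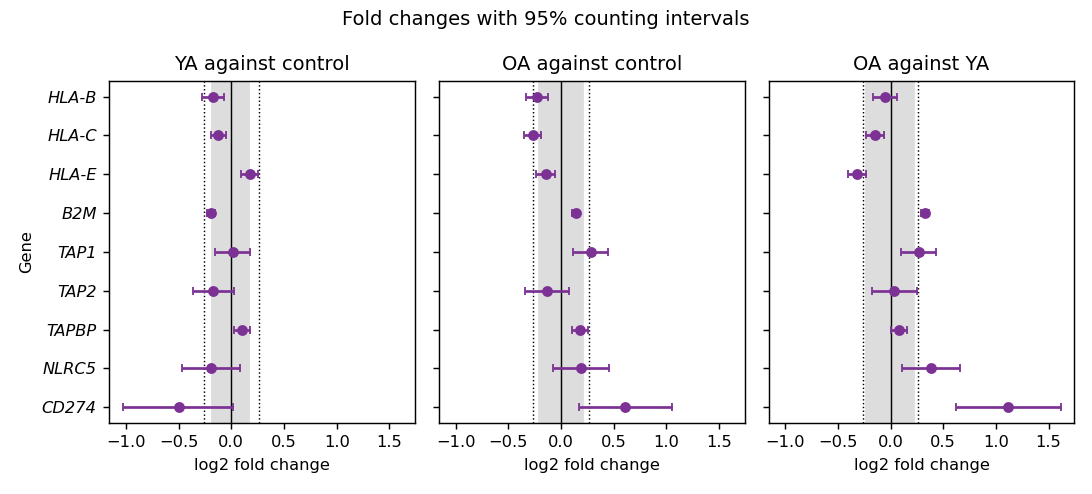
Log2 fold changes of the 9 genes (ratio of normalised counts) in each comparison, with 95% counting intervals; dotted lines mark 1.2-fold and grey bands the interquartile range of all 14413 tested genes. CD274 lies furthest from 0 in all 3 panels, and in OA against YA its interval runs from 0.62 to 1.61.

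Positions are on GRCh38, from GENCODE 29. CD274 (PD-L1; chromosome 9, 5450503 to 5470566, plus strand) had 78, 55 and 100 counts, or 73.5, 52.0 and 112 normalised counts. OA was the highest of the 3 libraries and YA the lowest. The level in OA was 2.16-fold that in YA (interval 1.54 to 3.06), and 6.33% of tested genes differed at least as far in either direction. Against control it was 1.53-fold in OA (1.12 to 2.08) and 0.707-fold in YA (0.492 to 1.01), so the lower count in YA was within counting error. With 55 to 100 reads per library these are the least precise values of the 9 genes. Relative to B2M in the same library, a ratio that does not depend on scaling, CD274 was 1.72-fold higher in OA than in YA (1.23 to 2.39).

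B2M (chromosome 15, 44711487 to 44718877, plus strand), the light chain shared by all classical class I molecules, had 12281, 10718 and 11350 counts, or 11572, 10130 and 12740 normalised counts. YA was again the lowest library and OA the highest. Against control YA stood at 0.875-fold (0.853 to 0.898) and OA at 1.10-fold (1.07 to 1.13), and OA was 1.26-fold of YA (1.22 to 1.29). These are small differences measured on many reads, and without replicates the spread between cultures is unknown.

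The heavy chains were lower in OA than in control, where the light chain was higher. HLA-B (chromosome 6, 31269491 to 31357188, minus strand) had 1695, 1498 and 1215 counts, with normalised counts of 1597, 1416 and 1364. HLA-C (chromosome 6, 31268749 to 31272130, minus strand) had 3109, 2848 and 2165 counts and 2930, 2692 and 2430 normalised counts. Both were highest in control, and HLA-C was lowest in OA beyond its counting error. The fold change in OA was 0.854 for HLA-B (0.793 to 0.920) and 0.830 for HLA-C (0.785 to 0.877). In YA it was 0.886 (0.826 to 0.951) and 0.919 (0.873 to 0.967). Counts of these near-identical genes are uncertain, since the handling of reads that match several genes is not given in the sources used here. In GENCODE 29 the HLA-B locus also includes a transcript that reaches HLA-C, with which it shares 35 exon bases. With AL671883.2 on the opposite strand included, 18.9% of the exon bases of HLA-B are shared. AL671883.2 had 1, 0 and 0 counts.

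HLA-E (chromosome 6, 30489467 to 30494205, plus strand), the non-classical ligand of NK cell receptors, had 2428, 2734 and 1842 counts, or 2288, 2584 and 2068 normalised counts. Here YA was the highest library and OA the lowest. Against control YA stood at 1.13-fold (1.07 to 1.19) and OA at 0.904-fold (0.850 to 0.960), and OA was 0.800-fold of YA (0.754 to 0.849). Relative to HLA-B, HLA-E was 1.27-fold higher in YA than in control (1.17 to 1.39), whereas HLA-B relative to HLA-C was 0.965-fold in YA (0.885 to 1.05) and 1.03-fold in OA (0.939 to 1.13).

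Summed, the 3 heavy chain genes held 337 (95% exact binomial interval 330 to 345), 332 (325 to 340) and 289 (281 to 297) CPM, counts scaled to a common library total. The OA library was thus below the other two, at 0.860 of the normalised level in control (0.830 to 0.891). The other 3 heavy chain genes of the antigen loading list, which are no members, together had 2724, 2655 and 2500 counts and were 1.09-fold of control in OA (1.04 to 1.16). All 6 together were 0.924-fold in OA (0.897 to 0.952). For each B2M count there were 0.589, 0.661 and 0.460 counts of HLA-B, HLA-C and HLA-E, and the OA ratio was 0.697 of the YA ratio (0.666 to 0.728).

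Of the peptide loading members, TAP1 passed 1.2-fold in OA against control, and TAP2 and TAPBP did not. TAP1 (chromosome 6, 32845209 to 32853978, minus strand), one chain of the peptide transporter, had 598, 602 and 610 counts, or 564, 569 and 685 normalised counts. Its level was 1.01-fold of control in YA (0.900 to 1.13) and 1.22-fold in OA (1.08 to 1.36). TAP2 (chromosome 6, 32821833 to 32838780, minus strand), its partner, had 457, 405 and 350 counts and 431, 383 and 393 normalised counts, with both intervals against control spanning 1. The ratio of TAP1 to TAP2 was 1.33-fold higher in OA than in control (1.11 to 1.59) and 1.14-fold in YA (0.953 to 1.35). In GENCODE 29 TAP2 shares 32.3% of its exon bases with AL669918.1 on the same strand, which had 0 counts in all 3 libraries, and TAP1 9.49% with PSMB8-AS1 on the opposite strand, which had 25, 16 and 13 counts. How reads in shared exons were assigned is not given in the sources used here, so both values are uncertain to that extent.

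TAPBP (chromosome 6, 33299694 to 33314387, minus strand), encoding tapasin, had 2838, 3039 and 2699 counts, or 2674, 2872 and 3030 normalised counts. It was 1.07-fold of control in YA (1.02 to 1.13) and 1.13-fold in OA (1.07 to 1.19). NLRC5 (chromosome 16, 56989485 to 57083531, plus strand) had 244, 213 and 234 counts and 230, 201 and 263 normalised counts. Its fold change was 0.876 in YA (0.725 to 1.06) and 1.14 in OA (0.951 to 1.37), so no difference from control was detectable at this depth. Between OA and YA it was 1.31 (1.08 to 1.58). OA had the most NLRC5 by normalised count, while HLA-B and HLA-C were highest in control and HLA-E in YA.

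Ratios to B2M within a library, which no scaling factor enters, differed between the members in OA. Against control, the ratio was 0.754-fold for HLA-C (0.709 to 0.801), 0.776-fold for HLA-B (0.717 to 0.839), 0.821-fold for HLA-E (0.769 to 0.877) and 0.829-fold for TAP2 (0.719 to 0.955). For TAPBP (1.03-fold, 0.971 to 1.09), NLRC5 (1.04-fold, 0.866 to 1.24) and TAP1 (1.10-fold, 0.983 to 1.24) the intervals held 1, and for CD274 the ratio was 1.39-fold (1.03 to 1.87). In YA the ratio was higher for HLA-E (1.29-fold, 1.22 to 1.37), TAPBP (1.23-fold, 1.16 to 1.30) and TAP1 (1.15-fold, 1.03 to 1.29), and the intervals of HLA-C (1.05-fold, 0.991 to 1.11) and CD274 (0.808-fold, 0.572 to 1.14) held 1. B2M itself was 0.875-fold of control in YA and 1.10-fold in OA, so each ratio also carries the difference in B2M. Without the division, TAP1 was 1.01-fold of control in YA (0.900 to 1.13).

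The rest of the pathway was followed in lists of genes, with counts over those that passed the expression filter. Each is to be read against all tested genes, of which 17.4% were higher and 16.4% lower in YA, and 21.1% higher and 21.5% lower in OA. Of 16 tested antigen loading genes, members included, 3 were at least 1.2-fold higher and 0 lower in YA, and 2 were higher and 2 lower in OA, with medians of -0.03 and 0.07. The exception in size was CD1D, which presents lipid antigens on a B2M-bound heavy chain, with 66, 94 and 14 counts, so that OA was at 0.253 of control (0.131 to 0.455). HFE, the iron-regulating class I-like gene, had 213, 286 and 202 counts and was 1.35-fold in YA (1.12 to 1.62), and HLA-F had 36, 42 and 40. Of 12 immunoproteasome and peptide trimming genes 0 were higher and 2 lower in YA (PSMB10 and LAP3), and 0 higher and 1 lower in OA (PSMB10), with medians of -0.11 and -0.02. The inducible subunits PSMB8 (814, 699 and 659 counts) and PSMB9 (390, 359 and 365) stayed within 1.2-fold of control, and PSMB10 had 107, 79 and 68 counts with an interval in OA from 0.550 to 1.04. PSME2, a proteasome activator subunit, was 1.16-fold of control in OA (1.07 to 1.25).

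Of 14 regulators of class I transcription, 1 was at least 1.2-fold higher and 0 lower in YA, and 3 were higher and 1 lower in OA, with medians of 0.01 and 0.11. The 3 of 14 higher in OA are close to the 21.1% of all tested genes. IRF1, an interferon-induced activator of class I genes and CD274, had 309, 443 and 438 counts, so it was higher under both secretomes, at 1.44-fold (1.24 to 1.67) and 1.69-fold (1.46 to 1.96). IRF2 had 651, 715 and 769 counts and was 1.41-fold in OA (1.27 to 1.56). NFYA, a subunit of the factor that binds CCAAT, was 0.840-fold in YA (0.766 to 0.920). Among 11 receptor and JAK-STAT genes, TYK2 was 1.29-fold in YA (1.23 to 1.36) and IFNAR2 1.25-fold in OA (0.986 to 1.59). The feedback inhibitor SOCS3 had 665, 465 and 446 counts and was 0.701-fold in YA (0.622 to 0.791) and 0.799-fold in OA (0.707 to 0.902). Of 10 interferon ligand genes none passed the filter: IFNG had 0 counts in every library, IFNB1 1, 0 and 0, and IFNE 6, 6 and 18. For IFNG a floor of 3 counts per library applies.

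In the interferon-response list 24 genes were tested, of which 2 passed 1.2-fold upward and 5 downward in YA, while 11 were higher and 5 lower in OA, with medians of -0.05 and 0.24. The 5 lower genes in each library are near the 16.4% and 21.5% of all tested genes, and the 11 higher in OA stand beside 21.1%. OASL had 12, 14 and 38 counts and was 3.77-fold in OA (1.93 to 7.93), and IFI44L had 26, 24 and 58 (2.66-fold, 1.65 to 4.40). BST2 was lower under both secretomes, with 75, 40 and 37 counts. WARS, a tryptophanyl-tRNA synthetase that interferon gamma induces, had 4288, 6658 and 4217 counts and was 1.56-fold in YA (1.5 to 1.62). By the stricter interval rule 6 of the 24 were above and 3 below in OA, where 9.04% and 9.08% of tested genes passed. CD274 was also highest in OA, and a link between these genes and CD274 was not tested.

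The class II genes differed further from control in OA than the class I members. Class II molecules present peptides from outside the cell to CD4+ T cells, and their transcripts were abundant in control A375 cells. In OA 11 of 11 tested class II list genes were at least 1.2-fold lower than control, with a median log2 fold change of -1.10, where 21.5% of all tested genes were lower, and the counting interval lay wholly below for 10 of the 11, where 9.08% did. In YA 0 of 11 passed in either direction, with a median of 0.01. HLA-DRA, the alpha chain of HLA-DR, had 8214, 7731 and 2744 counts, 0.398-fold in OA (0.381 to 0.416). HLA-DOA had 278, 240 and 48 counts (0.206-fold, 0.148 to 0.280) and HLA-DQA1 232, 236 and 68 (0.349-fold, 0.262 to 0.459). The weakest was HLA-DMB, a peptide-exchange chaperone subunit, at 0.680-fold (0.514 to 0.893).

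CIITA, the class II transactivator, had 1503, 1783 and 702 counts, and CD74, the invariant chain, had 40303, 40449 and 19831. CIITA was 0.556-fold of control in OA (0.508 to 0.609), beside 1.14-fold for NLRC5 (0.951 to 1.37). Summed, the 12 class II genes held 2765 (2743 to 2787), 2762 (2740 to 2784) and 1481 (1463 to 1499) CPM. The OA library alone was low. For each count of HLA-B, HLA-C and HLA-E there were 8.20, 8.31 and 5.13 class II counts, the last being 0.626-fold of control (0.602 to 0.650). In the same libraries LYZ and ITGAX, the 2 leukocyte markers that passed the expression filter, had 148, 143 and 86 and 59, 69 and 32 counts. PTPRC was at 0 or 1 count throughout. The part of leukocyte markers in the class II values was not tested.

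**Figure D3:**
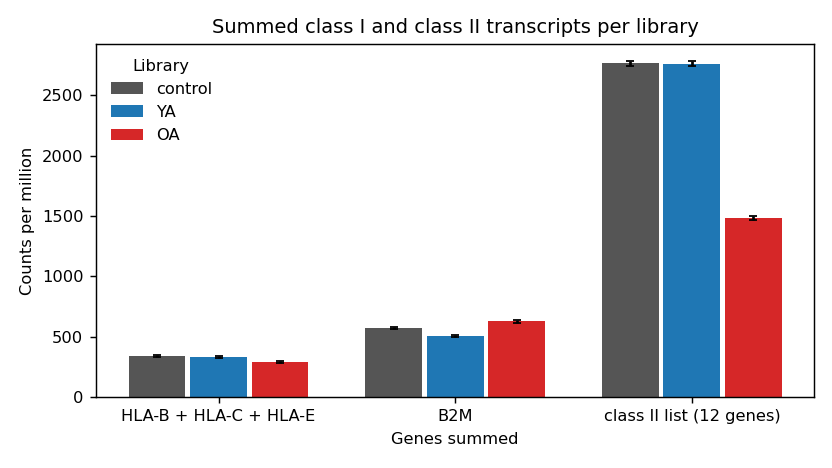
CPM (counts scaled to a common library total) of HLA-B, HLA-C and HLA-E summed, of B2M and of the 12 class II genes in each library; bars start at 0 and whiskers are 95% exact binomial intervals. The class II bar is 1481 in OA beside 2765 in control and 2762 in YA, while the bars of the 3 heavy chains run from 289 to 337 and those of B2M from 503 to 628.

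CD274 was compared with the other ligands of inhibitory receptors. Of 9 tested checkpoint genes, CD274 included, 3 were at least 1.2-fold higher and 1 lower in YA, and 5 were higher and 1 lower in OA, with medians of -0.06 and 0.31, where 17.4% and 16.4% of all tested genes passed in YA and 21.1% and 21.5% in OA. CEACAM1, a ligand of the receptor TIM-3, had 42, 127 and 58 counts, 3.03-fold of control in YA (2.12 to 4.41) and 1.65-fold in OA (1.09 to 2.51). VSIR, encoding VISTA, had 346, 308 and 166 counts and was 0.572-fold in OA (0.472 to 0.690). PDCD1LG2, the gene of PD-L2, the other PD-1 ligand, had 13, 13 and 30 counts, which was below the filter and 2.75-fold of control in OA (1.39 to 5.74). That gene was named after its values were seen.

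Among 12 genes that act on PD-L1 synthesis or stability, 1 was at least 1.2-fold higher and 1 lower in YA, and 3 were higher and 2 lower in OA. CMTM6, which protects PD-L1 from degradation and was also named after its values were seen, had 3954, 3813 and 4240 counts and was 1.28-fold in OA (1.22 to 1.33). B4GALT1, a galactosyltransferase, had 1974, 2197 and 2933 counts (1.77-fold, 1.67 to 1.88). JUN, an AP-1 subunit, had 1554, 1049 and 788 and was 0.677-fold in YA (0.626 to 0.733) and 0.604-fold in OA (0.554 to 0.659). Of 5 tested NK ligand genes 1 was higher and 0 lower in YA and 3 were higher and 1 lower in OA. Of all tested genes 17.4% were higher and 16.4% lower in YA, and 21.1% higher and 21.5% lower in OA. The counting interval in OA lay wholly above 1.2-fold for 1 of the 5 (RAET1E) and below for 0. RAET1E, a ligand of the receptor NKG2D, had 33, 45 and 57 counts and was 2.06-fold in OA (1.32 to 3.26). ULBP2 had 115, 124 and 124 counts and ULBP3 77, 64 and 51, each with intervals spanning 1.

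**Figure D4:**
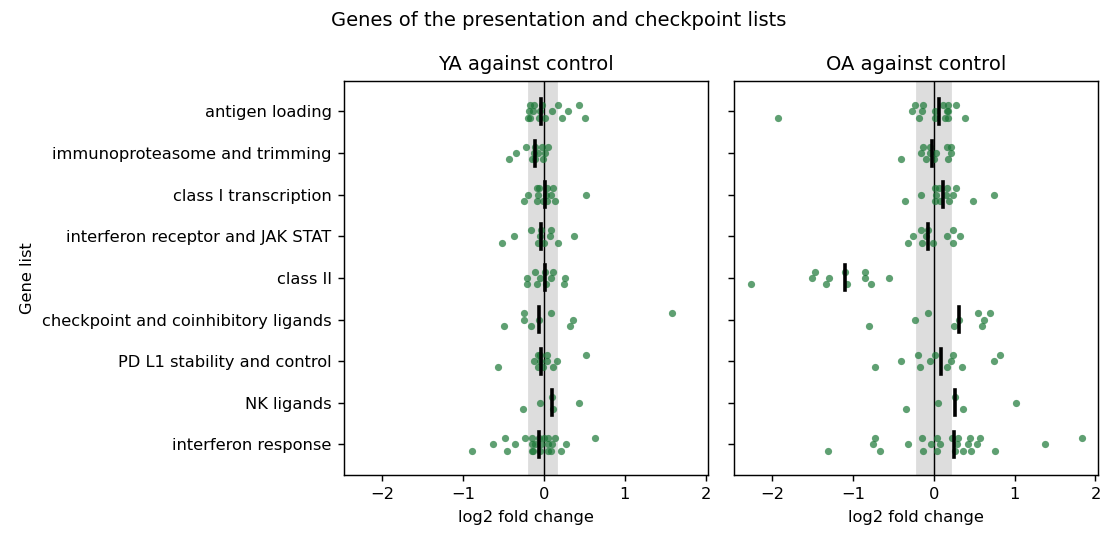
Log2 fold changes of the tested genes of each list in YA and in OA against control, 1 point per gene with the median as a bar; grey bands span the interquartile range of all tested genes, and the 2 panels share the control library. The class II list lies wholly below 0 in OA (median -1.10) and around 0 in YA, while the antigen loading list has medians of -0.03 and 0.07.

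The genes nearest in pattern to the median member, by distance over the 2 log2 fold changes against control in these 3 libraries, were CISD1, PLK4, BIRC2, SRP54 and ASF1B among 11154 genes with a mean of at least 100. CISD1 had 399, 353 and 369 counts, with log2 fold changes of -0.17 in YA and 0.14 in OA.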

How the data were processed

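Poly(A) RNA libraries of A375 cells (SureSelect, NovaSeq per the labels) were analysed, 1 per group. The authors deposited raw counts per gene. The submitters' processing notes list STAR 2.5.1b, featureCounts, R 3.6.1 and hg38, while strand use, multi-mapping and annotation release are not given in the sources used here. Counts were divided by DESeq2 1.42.0 size factors (1.06 control, 1.06 YA, 0.891 OA) in R 4.3.3, and log2 fold changes used a pseudocount of 1. The 14413 genes whose normalised counts averaged 20 or more (99.7% of counts) formed the background. With 1 library per group, edgeR's quasi-likelihood test could not be run and no p-value was computed. The 95% Clopper-Pearson intervals, the interval of a ratio of 2 genes (from the log odds ratio) and the floor of 3 counts hold only the error of counting and compare libraries, not conditions. Positions and lengths came from GENCODE 29 on GRCh38, matched by identifier for 57433 of 58037 genes. VSIR was matched by identifier under an older symbol. The named genes were all members, IRF1, PSMB8, PSMB9 and CIITA, and the 2 largest changes per list and secretome, with HLA-DRA, CD74, PDCD1LG2 and CMTM6 added after their values were seen. A further gene of that rule is not reported here. The 5 nearest genes followed from distance. Members and lists were chosen with earlier results of these data known. The summed class II level was added after values were seen. Alternatives included edgeR 4.0.16 TMM scaling. The procedure was tested on simulated counts that held only counting error, with changes of 2-fold up or down. That setting had no variation between cultures and no changes near 1.2-fold. Python 3.11.15 with scipy 1.17.1 was used.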

Additional observations from a re-analysis of the deposited data

How the results depend on the processing

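No paired analysis was possible because each group had 1 library, and for the same reason no replicate could be left out. Under TMM and total-count scaling the number higher in OA than in YA was 3 (TAP1 fell short). The 81 alternative values of the members' log2 fold changes (TMM scaling, total-count scaling, pseudocount of 5) stayed within their counting intervals, and the 81 alternative list medians moved by less than 0.1. The members' numbers past the threshold stayed within 1.5 times under both scalings, the pseudocount of 5 and no filter. With a minimum mean of 100, which removes CD274 and leaves 8 members, 0 were lower in YA and 1 higher in OA against control. Stricter rules lower the numbers by construction. At 1.5-fold there were 0 lower in YA against control, 1 higher and 0 lower in OA against control, and 1 higher and 0 lower in OA against YA. At 2-fold these were 0, 0 and 0, and 1 and 0. The shares of all tested genes at 1.5-fold and 2-fold were not computed, so these member numbers have no background beside them. Asking that whole intervals lie past 1.2-fold gave 0, 0 and 0, and 2 and 0. With all 6 heavy chain genes summed, their share of counts became 0.0464% (control), 0.0457% (YA) and 0.0427% (OA). CD274, at 55 to 100 counts, is limited most by depth.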
